A study of Mus musculus with 6 samples.

Results

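The MYC, MAX and MXD network was followed in AML12 cells through 9 genes of 54532 in the deposited count table, taken by symbol: Myc, Mycn, Max, Mxd1, Mxi1, Mxd3, Mxd4, Mnt and Mga. AML12 is a cultured line of hepatocytes that came from a mouse transgenic for human TGF-alpha; the labels call its genotype WT and its cells parenchymal hepatic cells. One group of 3 libraries was labelled PP, given at 250 µg/ml, and the other 3 were labelled PA/OA, which the design text calls a modelling reagent and gives as 400 nM of the one and 800 nM of the other; both treatments lasted 24 h. Whether PP cells also received PA/OA is not clear from the design text, and untreated cells were not analysed here. The series title concerns Camellia oleifera meal peptides and lipid metabolism. No label states that the 3 libraries per group had cultures of their own, so errors and p-values here cover variation from library to library, part or all of which may be technical.

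MYC and its relative MYCN are transcription factors that bind DNA as pairs with MAX, at the E-box CACGTG, and switch on genes of ribosome assembly, nucleotide synthesis, glycolysis and cell growth. MXD1, MXI1, MXD3, MXD4 and MNT pair with MAX at the same sites and bring in the SIN3 and histone deacetylase corepressor, so that they oppose MYC. MGA is a large protein with both a T-box and a MAX-binding domain, and acts in a Polycomb complex. In the liver, Myc is known for its early rise after partial hepatectomy and for its role in liver tumours.

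The 9 genes were picked because Mxd1 and Mxi1 had been seen higher and Myc lower in PP. Their difference between PP and PA/OA is therefore given as a description, with the standard error and without a test. In short, the mRNAs of 3 MAX-binding repressors, Mxd1, Mxi1 and Mnt, were 6.65-fold, 3.50-fold and 3.29-fold as high in PP as in PA/OA, Max was 1.34-fold as high, and Myc was 0.738-fold. Mxd4, another repressor, went with Myc at 0.682-fold. The sections that follow give every library's value, then genes outside the 9, which were tested. There, rose and fell mean higher and lower in PP than in PA/OA. Without untreated cells, which of the groups changed cannot be told.

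Windows of 300 bases around the annotated starts show where the letters of the E-box CACGTG lie in the network's genes. RefSeq windows (build GRCm38.p6, 250 bases before the start and 50 after) were given for 8 of the 9, all but Myc, and CACGTG, which reads the same on both strands, stood in 3 of them (37.5%), against 8.09% of all genes with a window and 11.6% of tested genes with one. These 3 belong to Max, Mnt and Mxd4 and are printed 5′ to 3′ with the E-box in capitals. Its first base lies 3 bases before the start in Max, 123 before in Mnt and 219 before in Mxd4. The single windows of Mxd1, Mxd3, Mga and Mycn and the 3 windows of Mxi1 did not hold these letters. G and C made up 64.7%, 70.7% and 61.0% of the windows of Max, Mnt and Mxd4. In the windows without a match they made up 56.0% to 76.7%, and the median of all windows was 52.7%. The part of base content in the share of matches was not tested.
Max, chr12:76962199-76962498, minus strand: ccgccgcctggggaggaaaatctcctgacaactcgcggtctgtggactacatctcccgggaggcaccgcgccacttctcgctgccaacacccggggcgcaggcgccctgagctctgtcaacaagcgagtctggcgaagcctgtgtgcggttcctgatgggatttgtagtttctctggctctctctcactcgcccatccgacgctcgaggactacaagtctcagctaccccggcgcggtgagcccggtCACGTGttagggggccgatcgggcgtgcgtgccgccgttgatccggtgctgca
Mnt, chr11:74830674-74830973, plus strand: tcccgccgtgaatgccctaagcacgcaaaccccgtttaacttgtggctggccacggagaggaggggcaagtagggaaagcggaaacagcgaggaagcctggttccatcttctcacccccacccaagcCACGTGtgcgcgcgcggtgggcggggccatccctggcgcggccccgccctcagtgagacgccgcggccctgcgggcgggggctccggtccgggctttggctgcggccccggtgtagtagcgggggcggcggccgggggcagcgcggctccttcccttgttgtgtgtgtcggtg
Mxd4, chr5:34187661-34187960, minus strand: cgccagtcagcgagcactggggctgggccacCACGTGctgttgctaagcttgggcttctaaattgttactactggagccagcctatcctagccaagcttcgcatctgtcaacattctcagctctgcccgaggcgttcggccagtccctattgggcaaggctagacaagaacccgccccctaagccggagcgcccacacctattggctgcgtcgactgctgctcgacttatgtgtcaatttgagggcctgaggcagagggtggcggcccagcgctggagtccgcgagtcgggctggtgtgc

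Total counts per library ran from 27418502 to 32560589 in PP and from 24113169 to 26825673 in PA/OA. Levels are given as CPM, each count divided by its library's TMM-scaled total, whose TMM factors ran from 0.849 to 0.867 in PP and from 1.15 to 1.17 in PA/OA. Of 15718 genes with enough counts to test, edgeR's quasi-likelihood test called 75.0% (adjusted p below 0.05), 35.1% higher and 39.9% lower in PP. TMM gave 5510 higher and 6275 lower genes, scaling by library size only gave 3235 and 8910, and the upper quartile gave 4241 and 7688. Fold changes also moved with abundance: the median log2 fold change (PP minus PA/OA) was -1.74 in the lowest of 10 abundance bins of equal size and 0.55 in the highest. The 10 hepatocyte markers summed to 3724 to 4074 CPM in PP and 3010 to 3223 CPM in PA/OA, mostly Krt8 and Krt18. Both were higher in PP, Krt8 at 1994 against 1775 CPM in PA/OA and Krt18 at 1730 against 975 CPM. Apob was lower, at 75.8 ± 9.68 CPM in PP and 246 ± 5.93 CPM in PA/OA (SD, n = 3 each). So was Hnf4a, at 26.8 ± 1.54 CPM in PP and 71.7 ± 5.06 CPM in PA/OA. Alb was at 9.90 CPM in PP and 12.2 CPM in PA/OA. Ttr, Apoa1 and Trf did not pass the test, and Serpina1a and Cps1 were too low to test. Summed markers of bile duct cells ran from 4053 to 4496 CPM in PP and from 2429 to 2554 CPM in PA/OA, mostly Krt19, while Epcam had no count. The 5 Kupffer cell markers summed to 26.6 to 29.5 CPM in PP and 3.13 to 3.79 CPM in PA/OA, nearly all Cd68, with Adgre1 and Clec4f at no count; stellate and endothelial markers summed to at most 5.32 CPM in any library. Their part in the results below was not tested. In bulk RNA, fewer cells with a transcript and less of it per cell cannot be told apart.

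All 9 genes passed the filter on low counts. The call rule took 4 as higher (Max, Mxd1, Mxi1 and Mnt), 3 as lower (Myc, Mxd4 and Mxd3) and left Mycn and Mga, so 7 of 9 were called where 75.0% of all genes were. Values of the 2 groups did not overlap for 6 of the 9, where 77.4% of all genes did not overlap. Since the 9 were chosen on this contrast, nothing is read from these counts.

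Myc (chromosome 15, 61985391 to 61990374, build mm10) codes for the activating partner of MAX. It stood at 103, 112 and 104 CPM in the PP libraries and at 143, 143 and 147 CPM in the PA/OA libraries. Every PP library was below every PA/OA library. Its log2 fold change was -0.44 ± 0.06 (SE), and the direction was kept under each setting tried, from -0.87 to -0.39. The median log2 fold change of genes in its abundance bin was 0.37. Mycn (chromosome 12, 12936093 to 12941914), the relative of Myc best known from neural development, was barely detected, with 24, 11 and 19 counts in PP and 24, 32 and 12 counts in PA/OA. The ranges overlapped, and the log2 fold change of -0.12 ± 0.48 changed sign without single libraries, from -0.45 to 0.21, and was 1.02 with the abundance trend removed.

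Max (chromosome 12, 76937269 to 76962201), the common partner of the other 8, stood at 83.5, 76.2 and 74.4 CPM in PP and at 58.4, 56.0 and 60.0 CPM in PA/OA. The PP libraries all lay above the PA/OA libraries, by a log2 fold change of 0.42 ± 0.07. That direction rests on the scaling, since it was -0.01 with library size only and 0.15 with the abundance trend removed. Another annotated gene on the same strand, Gm47218, lies within Max with a mean of 147 counts in PP and 69.7 counts in PA/OA.

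**Figure D1:**
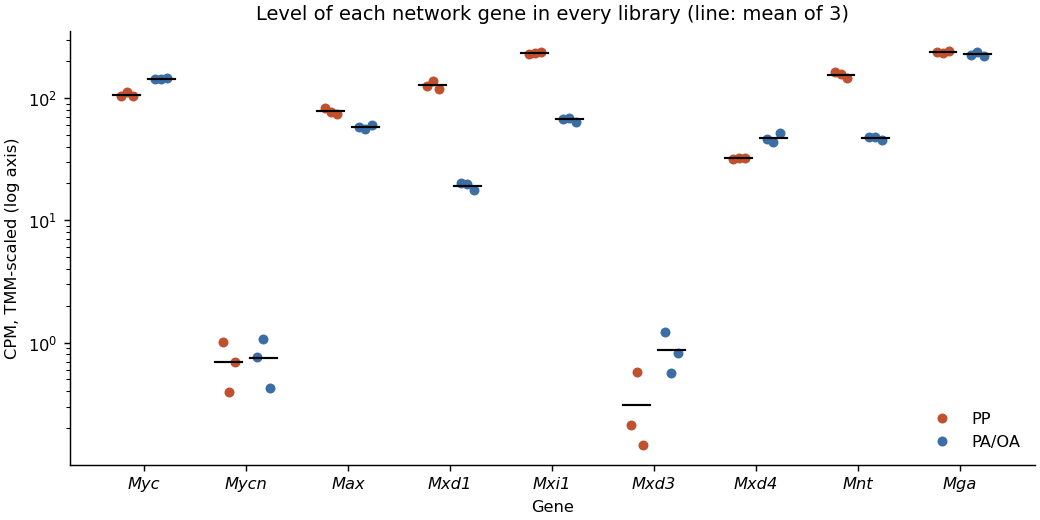
CPM after TMM scaling (log axis) of each network gene in the 3 PP and the 3 PA/OA libraries, with points for libraries and lines for means. Mxd1, Mxi1 and Mnt stand clear above PA/OA in PP, Myc and Mxd4 stand below it, and Mga overlaps, as do Mycn and Mxd3, with no library above 1.21 CPM.

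Mxd1 (chromosome 6, 86647042 to 86669161), the first described MAX-binding repressor and one that is known to come on when cells differentiate, differed most among the abundant genes of the 9. It stood at 126, 138 and 118 CPM in PP and at 20.0, 19.8 and 17.7 CPM in PA/OA. The lowest PP library was far above the highest PA/OA library, and the log2 fold change was 2.73 ± 0.08. Under the settings tried it ran from 2.30 to 2.81. Mxi1 (chromosome 19, 53310506 to 53375810), a repressor of the same family that is known as a target of FOXO3 and HIF1A, stood at 229, 234 and 238 CPM in PP and at 67.2, 69.1 and 64.0 CPM in PA/OA. The 3 PP libraries agreed closely, with a coefficient of variation of 1.83%, and the log2 fold change was 1.81 ± 0.06 (1.37 to 1.85 under the settings tried).

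Mnt (chromosome 11, 74830920 to 74845725), a repressor that is broadly expressed in dividing and resting cells, stood at 162, 158 and 146 CPM in PP and at 48.3, 48.0 and 45.5 CPM in PA/OA. The groups were well apart, with a log2 fold change of 1.72 ± 0.06 (1.28 to 1.78 under the settings tried). Mxd4 (chromosome 5, 34173883 to 34187720), the family's remaining abundant repressor, stood at 31.6, 32.3 and 32.6 CPM in PP and at 46.2, 43.5 and 51.9 CPM in PA/OA. Here PP was the lower group without overlap, with a log2 fold change of -0.55 ± 0.08 (-0.99 to -0.48 under the settings tried). Mxd1, Mxi1 and Mnt thus differed in direction from Mxd4 under each setting tried.

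Mxd3 (chromosome 13, 55325168 to 55329823), a family member known from S phase of proliferating cells, held 5, 16 and 4 counts in PP and 38, 17 and 23 counts in PA/OA. The groups lie close, with 16 counts in PP replicate 2 and 17 in PA/OA replicate 2, and on the CPM scale they overlapped. Its log2 fold change was -1.45 ± 0.55, and its size rests on single libraries. Mxd3 was at -1.22 without PP replicate 1, at -1.08 without PP replicate 3 and at -1.13 without PA/OA replicate 1. It was -2.25 without PP replicate 2 and -0.01 with the abundance trend removed. On the opposite strand over Mxd3 lies Prelid1, with a mean of 11925 counts in PP and 7720 counts in PA/OA, so the few counts of Mxd3 are uncertain where strand was not used. Mga (chromosome 2, 119897228 to 119969581), which the table places among T-box factors while the other 8 are listed as bHLH, stood at 236, 232 and 242 CPM in PP and at 224, 239 and 220 CPM in PA/OA. Its groups overlapped, and the log2 fold change was 0.06 ± 0.05. Mga was at -0.38 with library size only, at -0.18 with upper-quartile scaling and at -0.43 with the abundance trend removed.

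**Figure D2:**
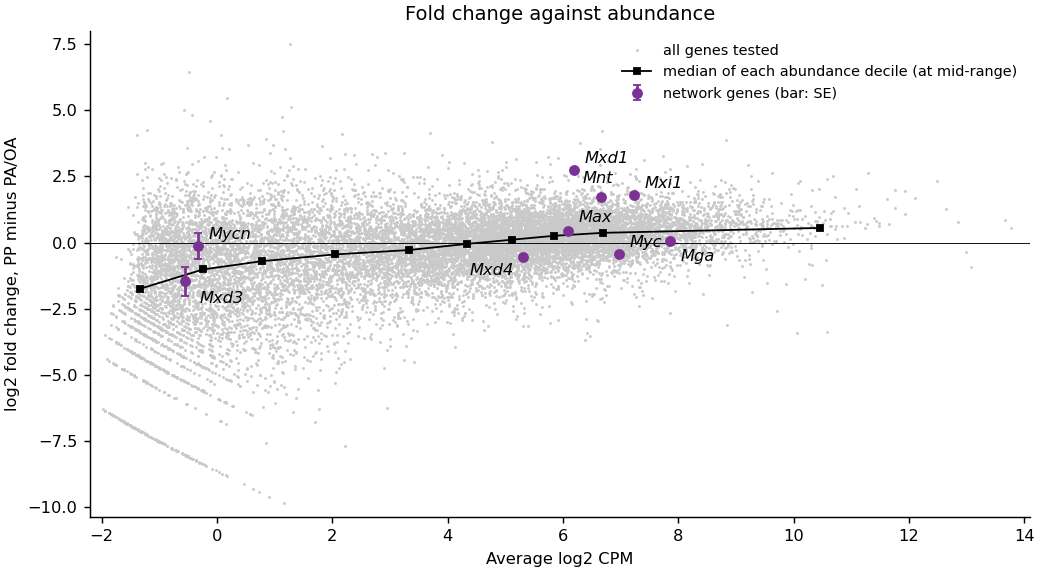
Log2 fold change (PP minus PA/OA) against average log2 CPM for all 15718 genes tested (grey), the median of each of 10 abundance bins (squares) and the 9 network genes with their SE. Mxd1, Mxi1 and Mnt lie above the black line, Myc and Mxd4 below it, and the low-count Mxd3 lies near it.

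**Figure D3:**
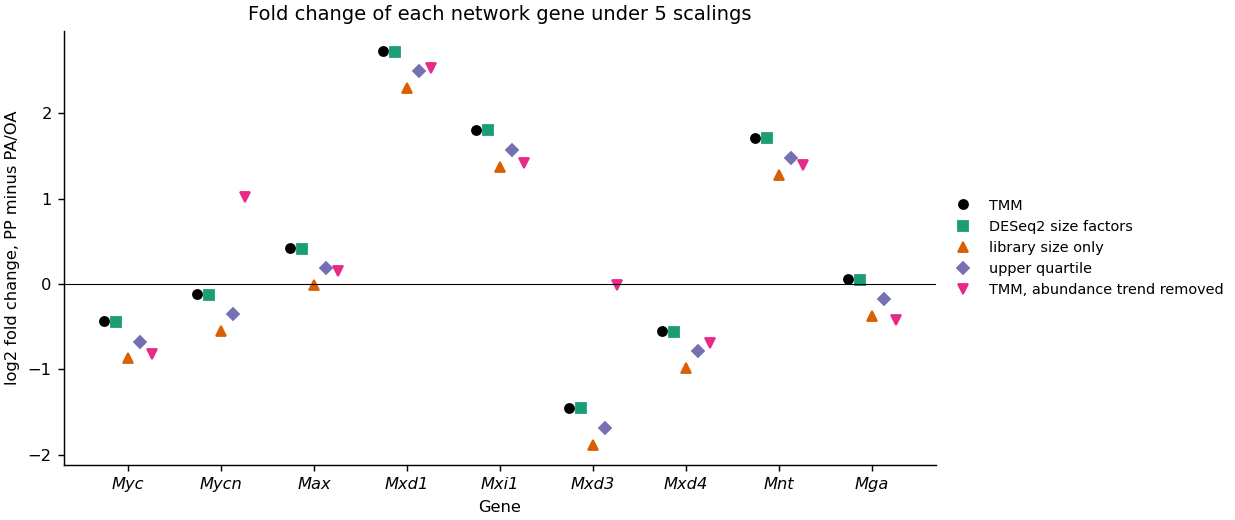
Log2 fold change (PP minus PA/OA) of each network gene under 5 scalings, 1 marker per scaling. Mxd1, Mxi1 and Mnt stay above 1 and Myc and Mxd4 below 0 under all 5, while Max, Mga and Mycn lie on both sides of 0.

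To compare levels between genes, CPM were divided by the table's gene length in kilobases. On this scale of CPM per kb, Mxi1 led in PP, followed by Myc, Mnt, Max, Mxd1, Mga, Mxd4, Mycn and Mxd3. Mxi1 averaged 41.6 ± 0.762 and Myc 39.2 ± 1.80 CPM per kb in PP (SD, n = 3), with overlapping libraries, so their order is not settled; Mycn and Mxd3 also overlapped. In PA/OA the order was Myc, Max, Mga, Mxi1, Mnt, Mxd4, Mxd1, Mxd3 and Mycn, with overlap between Max and Mga and between Mxd3 and Mycn. Myc averaged 53.1 ± 0.864 CPM per kb there, and the next gene, Max, 16.2 ± 0.566.

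The make-up of the pool can be read within a library, where the scaling between libraries drops out. Myc made up 21.8%, 23.3% and 22.6% of the summed CPM per kb of the 9 genes in PP, against 45.8%, 45.8% and 46.8% in PA/OA. The 4 MXD genes (Mxd1, Mxi1, Mxd3 and Mxd4) together made up 36.6% ± 0.715 in PP and 17.8% ± 0.217 in PA/OA (SD, n = 3 each), and Mnt 19.3% ± 0.743 in PP and 8.88% ± 0.308 in PA/OA. Max was a little lower in every PP library than in any PA/OA library, unlike its CPM, at 12.5% ± 0.711 in PP and 14.0% ± 0.467 in PA/OA. Summed MXD level over Myc level was 1.64, 1.58 and 1.64 in the PP libraries and 0.395, 0.389 and 0.377 in the PA/OA libraries. Every PP library held more MXD than Myc transcript per length, and every PA/OA library less. The 9 genes were picked because Mxd1 and Mxi1 were higher and Myc lower in PP. The direction of the Myc and MXD shares and of the MXD over Myc ratios restates that choice. Without division by length these ratios averaged 3.70 in PP and 0.929 in PA/OA, so the size of the ratios and of their difference depends on the gene lengths, while PP was the higher group either way. The summed level of all 9 was 174 ± 3.89 CPM per kb in PP and 115 ± 0.346 CPM per kb in PA/OA.

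**Figure D4:**
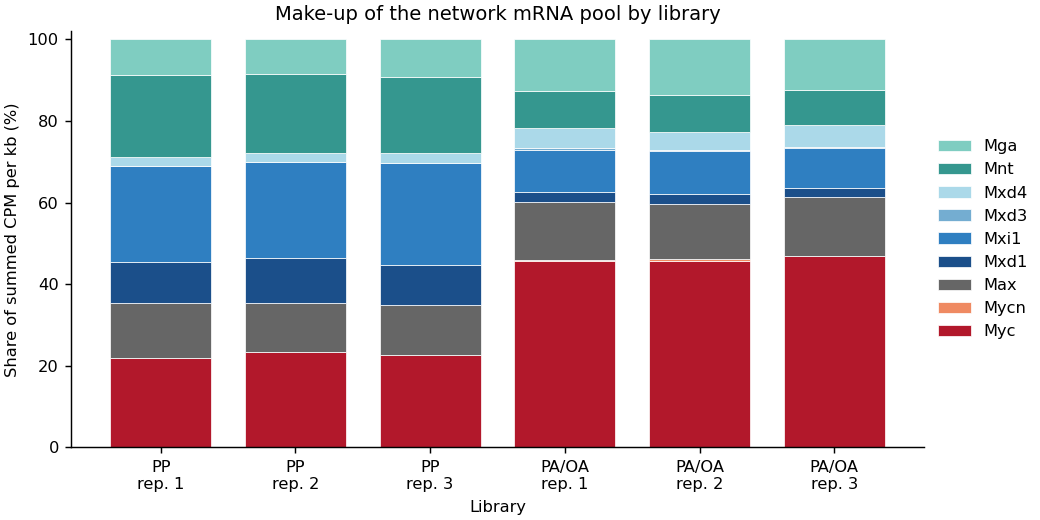
Share of each gene in the summed CPM per kb of the network (%, bars to 100) in the 3 PP libraries, left, and the 3 PA/OA libraries, right. Myc fills 21.8% to 23.3% of the bar in PP and 45.8% to 46.8% in PA/OA, with Mxd1, Mxi1 and Mnt wider in PP. The genes were picked on this contrast.

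Genes known to be activated by MYC, written as a list of 76 from general knowledge, were mostly lower in PP. Of 74 tested, 50 (67.6%) were lower and 15 (20.3%) higher, where 39.9% and 35.1% of all genes were, and the median log2 fold change was -0.64 against -0.09 over all genes tested. Nop56, a core protein of the box C/D small nucleolar particles, stood at 63.7 ± 3.20 CPM in PP and 399 ± 18.4 CPM in PA/OA (SD, n = 3 each), or -2.65 ± 0.06 in log2 fold change (edgeR, adjusted p = 3.15e-19). Rrp12, a factor in the export of ribosomal subunits, fell to 11.9 ± 2.33 CPM in PP, against 155 ± 13.1 CPM in PA/OA. Bop1, needed for the large ribosomal subunit, fell to 19.9 ± 1.76 CPM in PP, against 148 ± 12.3 CPM in PA/OA. Utp20, of the small-subunit processome, fell to 22.4 ± 3.20 CPM in PP, against 170 ± 9.65 CPM in PA/OA. The log2 fold changes of Rrp12, Bop1 and Utp20 were -3.70, -2.89 and -2.93.

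Targets that rose and those that fell both included genes in and outside ribosome assembly. Npm1 and Ncl, nucleolar proteins of ribosome assembly, rose by 0.54 and 0.26 on the log2 scale. Both lie in the highest abundance bin, whose median was 0.55, so neither lay above that median. Srm and Cad, of polyamine and pyrimidine synthesis, fell by 2.16 and 0.77. These 4 were named after their values were seen. Ldha, the lactate dehydrogenase subunit of glycolysis, rose to 3244 ± 166 CPM in PP, against 1231 ± 15.8 CPM in PA/OA, or 1.40 ± 0.05 in log2 fold change (edgeR, adjusted p = 6.98e-16). Sord, sorbitol dehydrogenase, rose by 2.00 on the log2 scale, Plk4, the kinase of centriole duplication, by 1.58, and Tmem97, a sterol-regulated membrane protein gene, by 1.14. The split was 61 lower and 9 higher with library size only, and 57 lower and 9 higher with the abundance trend removed. Of all 15718 genes, 8910 were lower and 3235 higher with library size only, and 5567 lower and 5609 higher with the trend removed. In the annotation Idh3b lies over Nop56 and Mroh1 over Bop1 on the other strand, and Ldha has processed pseudogenes that can share its reads, so these counts are uncertain.

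**Figure D5:**
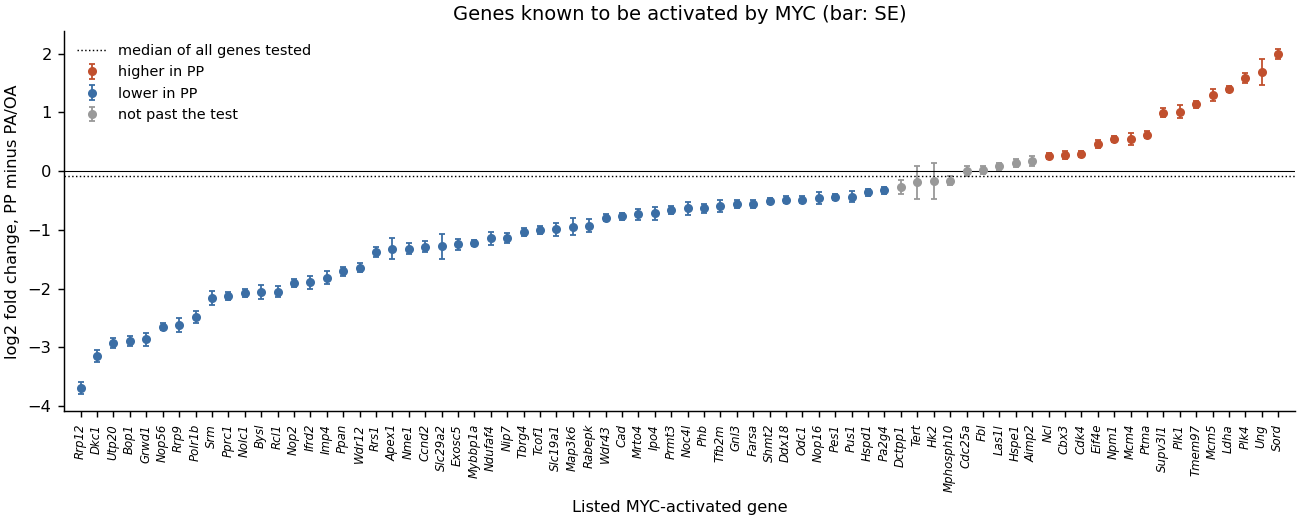
Log2 fold change (PP minus PA/OA) with SE of the 74 tested genes known to be activated by MYC, ordered by value and coloured by call; the dotted line is the median of all genes tested. The 50 lower genes run down to Rrp12 at -3.70 and the 15 higher ones up to Sord at 2.00.

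The E-box was counted in the windows of these targets as a description. It stood in 15 of the 44 lower targets with a RefSeq window (34.1%) in 3 of the 13 higher ones (23.1%) and in 0 of the 8 not past the test, or in 19 of 67 listed targets with a window (28.4%). Among all tested genes with a window the shares were 11.3% of those lower, 12.2% of those higher and 11.6% in all. The window of Utp20, lower in PP, holds an E-box from base 38 after the start. A window of Ldha, higher in PP, holds a pair whose first bases lie 145 and 48 before the start. Both windows are printed with the E-boxes in capitals. A further window of Ldha held none, nor did those of Nop56, Sord, Plk4 and Tmem97. A match is letters in a window, and binding was not measured.
Utp20, chr10:88826765-88827064, minus strand: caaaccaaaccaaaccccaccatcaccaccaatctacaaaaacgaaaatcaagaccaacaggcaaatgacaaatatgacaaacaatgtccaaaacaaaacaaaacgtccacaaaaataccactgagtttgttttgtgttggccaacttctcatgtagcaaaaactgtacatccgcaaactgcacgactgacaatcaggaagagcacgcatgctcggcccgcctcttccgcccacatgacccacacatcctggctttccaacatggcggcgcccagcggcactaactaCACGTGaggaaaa
Ldha, chr7:46845554-46845853, plus strand: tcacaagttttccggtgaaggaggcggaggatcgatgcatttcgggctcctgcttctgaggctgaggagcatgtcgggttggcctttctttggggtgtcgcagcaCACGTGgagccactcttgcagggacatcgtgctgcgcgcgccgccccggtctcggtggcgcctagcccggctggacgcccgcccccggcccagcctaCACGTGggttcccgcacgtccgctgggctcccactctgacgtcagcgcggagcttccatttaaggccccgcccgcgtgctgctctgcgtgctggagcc

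Genes known to be held down by MYC went mostly the other way. Of 15 listed, 11 were tested, of which 6 (54.5%) were higher, 1 (9.09%) was lower and 4 fell short of the threshold, where 35.1% of all genes were higher and 39.9% lower; their median was 0.68 in log2 fold change. Cdkn1b, the cyclin-dependent kinase inhibitor p27, rose to 351 ± 6.84 CPM in PP, against 79.6 ± 7.88 CPM in PA/OA, or 2.14 ± 0.06 in log2 fold change (edgeR, adjusted p = 1.90e-17). Cdkn1a, the inhibitor p21, rose by 1.75 on the log2 scale, Ndrg1 by 2.62 and the ferritin heavy chain gene Fth1 by 1.27; these genes are also under the control of other factors such as p53, HIF and NRF2. The lower one was Cebpa, at 0.0483 CPM in PP and 0.643 CPM in PA/OA (SE of the log2 fold change of -3.57, 0.81); it lies below the abundance asked of other named genes and was chosen after its value was seen. Fth1 also has pseudogenes that can share its reads.

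The SIN3 and histone deacetylase corepressor, through which MXD proteins and MNT act, was mostly higher. Of 20 genes listed, all tested, 16 (80.0% of them) were higher, 1 was lower and 3 fell short of the threshold, where all genes had 35.1% higher and 39.9% lower; their median was 0.63 in log2 fold change. Sap30, a SIN3-bound subunit, rose to 126 ± 7.93 CPM in PP, against 34.3 ± 0.993 CPM in PA/OA, or 1.88 ± 0.07 in log2 fold change (edgeR, adjusted p = 2.26e-16). The subunit genes Ing2, Sap130 and Suds3 rose by 1.58, 1.22 and 0.97, and Brms1l fell by 1.15. These counts were 12 higher and 6 lower when scaled by library size only, 12 and 4 by the upper quartile, and 12 and 5 with the abundance trend removed. For all 15718 genes the same settings gave 3235 higher and 8910 lower, 4241 and 7688, and 5609 and 5567.

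With TMM, cofactors of MYC stood near the shares of all genes tested, 35.1% higher and 39.9% lower. Of 18 tested, 7 (38.9%) were higher, 8 (44.4%) lower and 3 not past the test, with a median log2 fold change of -0.01. Crebbp, a histone acetyltransferase gene, fell to 32.6 ± 1.14 CPM in PP, against 101 ± 2.89 CPM in PA/OA (adjusted p = 1.85e-15, edgeR), and Ruvbl1, Kat2a and Ep300 fell by 1.30, 1.18 and 0.62 on the log2 scale. The acetyltransferase gene Kat5 and its partner Trrap, named after their values were seen, rose by 0.66 and 0.24. Trrap lies in the highest abundance bin, whose median was 0.55. Cdk9 and Ccnt1, the parts of the elongation kinase P-TEFb, rose by 0.71 and 0.75. Sp1, a GC-box factor, rose by 1.34. The split was 6 higher and 12 lower both with library size only and with the abundance trend removed.

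Of 21 genes whose proteins act on the stability of MYC protein, 13 (61.9%) were higher, 6 (28.6%) lower and 2 not past the test, beside 35.1% higher and 39.9% lower among all genes. Pim1, a kinase that is known to stabilise MYC, rose to 196 ± 5.22 CPM in PP, against 10.6 ± 0.739 CPM in PA/OA, or 4.20 ± 0.07 in log2 fold change (edgeR, adjusted p = 9.36e-21). Aurka, the mitotic kinase, rose by 1.48, Usp28, a deubiquitinase, by 1.15, and Gsk3a by 1.06. The ubiquitin ligase genes of the list went both ways: Stub1 and Trim32 rose by 1.12 and 0.87, while Fbxl14, Fbxw7, Huwe1 and Fbxo32 fell by 0.90, 0.69, 0.65 and 0.64. Usp36, a nucleolar deubiquitinase, fell by 1.10. Fbxo32 was not called with the abundance trend removed (adjusted p = 0.0824, edgeR). Skp2, of another ligase for MYC, was at -0.15 in log2 fold change (edgeR, adjusted p = 0.211), and was called lower with library size only (-0.58) and with upper-quartile scaling (-0.39). Gsk3b, the kinase that marks MYC for FBXW7, was called higher at 0.34, but was not called at 0.10 with upper-quartile scaling, at -0.10 with library size only or at -0.08 with the abundance trend removed. Only mRNA was measured, so the amount of MYC protein is not known.

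With TMM, genes that act on the transcription or decay of Myc mRNA were mostly higher. Of 17 tested of 18 listed, 11 (64.7%) were higher, 4 (23.5%) lower and 2 not past the test, beside 35.1% and 39.9% of all genes. Library size only gave 5 in each direction, where of all 15718 genes it gave 3235 higher and 8910 lower. Upper-quartile scaling gave 8 higher and 5 lower, where of all genes it gave 4241 and 7688. Removal of the abundance trend also gave 8 and 5, where of all genes it gave 5609 and 5567. Zfp36, which codes for tristetraprolin, a protein that promotes the decay of AU-rich mRNAs, rose to 111 ± 8.95 CPM in PP, against 18.9 ± 1.56 CPM in PA/OA, or 2.55 ± 0.08 in log2 fold change (edgeR, adjusted p = 3.39e-17). Stat3 and Ctnnb1, the gene of beta-catenin, rose by 1.31 and 1.09, and Igf2bp2 by 0.89. Igf2bp1, whose protein shields Myc mRNA from decay, fell to 27.8 ± 0.937 CPM in PP, against 82.1 ± 3.92 CPM in PA/OA, and its relative Igf2bp3 fell by 1.19. Pvt1, a long noncoding RNA gene next to Myc, fell by 0.32, and Cnbp by 0.30.

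Of 9 factors known in human or mouse cells to induce MXD genes, 8 (88.9%) were higher and 1 (11.1%) lower, under each setting tried; of all genes 35.1% were higher and 39.9% lower with TMM. Foxo3, known as an inducer of Mxi1, rose to 375 ± 14.8 CPM in PP, against 59.9 ± 1.40 CPM in PA/OA, or 2.65 ± 0.06 in log2 fold change (edgeR, adjusted p = 1.63e-19). Foxo1 rose by 2.16 and Foxo4 by 0.72. The hypoxia factor genes Hif1a and Epas1 rose by 1.46 and 1.24, Cebpb by 1.44 and Smad4 by 0.87, while Smad3 fell by 0.24. The remaining higher gene, Sp1 at 1.34, is also counted among the MYC cofactors above. In the parallel arm of the network, where MLX stands in the place of MAX and pairs with glucose-sensing partners, Mlx and Mlxip had log2 fold changes of -0.12 ± 0.10 and 0.09 ± 0.08, neither past the test. Mlxipl, the gene of ChREBP, rose to 2.55 ± 0.461 CPM in PP, against 0.855 ± 0.273 CPM in PA/OA. Mlx and Mlxip were both called lower with library size only (-0.55 and -0.35), as Mlx was with upper-quartile scaling (-0.35).

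Genes on the opposite strand with counts of their own lie over Cdkn1a, Ndrg1, Ing2, Suds3, Ccnt1, Cebpb, Hif1a, Stub1, Gsk3a, Skp2, Stat3, Ctnnb1, Igf2bp3, Zfp36, Pvt1, Mlx, Kat5 and Cebpa, so these counts are uncertain where strand was not used. Astn2 lies over Trim32 on the opposite strand, with a mean of 4.67 counts in PP and 0 in PA/OA. On the same strand, annotated transcripts with counts overlap Crebbp, Ep300, Fbxw7, Foxo1, Mlxip, Trrap, Pvt1 and Mxd1. The one over Mxd1, Gm44292, had a mean of 27 counts in PP and 30.3 counts in PA/OA.

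Many genes followed the same course over the 6 libraries, whatever the size of their change, as a description without a test. By Pearson's correlation of log2 CPM over the 6 libraries, among 10302 protein-coding genes whose mean log2 CPM was 1 or more, the nearest to Mxd1 were Fdx1, a mitochondrial electron carrier gene, Mcl1, a survival gene of the BCL2 family, and Me2, a mitochondrial malic enzyme gene. The nearest to Mxi1 were Gfpt1, the first enzyme of hexosamine synthesis, Atp7a, a copper pump gene, and Nup50, a nuclear pore gene. Myc had B3galt6, A630089N07Rik and Wdr73 as its nearest. Their log2 fold changes were -3.68, -3.53 and -2.08, against -0.44 for Myc, since the correlation does not weigh the size of a change. The 9 coefficients ran from 0.99889 to 0.99997, and 1528 genes (14.8%) reached 0.99 with Mxd1, 1612 (15.6%) with Mxi1 and 169 (1.64%) with Myc. The points share 2 groups that lie far apart, so such values are common here.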

How the data were processed

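RNA of 6 libraries of AML12 cells was sequenced, 3 labelled PP and 3 labelled PA/OA. Per the labels' protocols, the mRNA came from bead capture of poly(A) tails or from rRNA depletion, and the kit either kept strand or did not; the sources used here do not settle which, and aligner, annotation and strand setting are not given in them. The deposited values are raw counts per gene, made with featureCounts on build mm10 per the submitters' processing notes, which also name DESeq2 1.16.1 without its role.

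Groups came from the treatment labels. In R 4.3.3 with edgeR 4.0.16, filterByExpr kept 15718 of 54532 genes, TMM scaled the libraries, and the two-sided quasi-likelihood F-test set PP against PA/OA, with Benjamini-Hochberg adjustment over all genes tested and a threshold of 0.05; the biological coefficient of variation was 7.96%. Log2 fold changes are PP minus PA/OA, with an SE equal to their size over the square root of F. Within groups no library pair agreed within sampling noise (chi-square per gene 5.65 to 9.29). The fit was also run on simulated counts in which few genes changed, equally up and down, with no trend with abundance. That setting differs from these data, so it does not check the scaling. The 9 genes and the gene lists were chosen with earlier results of these data known, so no p was adjusted over a list and no set test was made. Of each list, the text names up to 4 genes a direction with the smallest p (mean log2 CPM of 1 or more, no overlap of the groups), and any of the turnover, inducer and MLX genes. Fam60a was found under its newer symbol Sinhcaf. For the genes nearest in pattern, 3 were taken per gene. RefSeq windows were matched by symbol. Some genes that this rule allows are not reported here. Alternatives were other scalings and filters, DESeq2 1.42.0, limma-voom (limma 3.58.1), the replicate number as a block, a lowess trend with abundance removed from each library (span 0.4), and leaving out each library. Counting error is the only error that depth limits here.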

Additional observations from a re-analysis of the deposited data

How the results depend on the processing

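The directions of Myc, Mxd1, Mxi1, Mnt and Mxd4 held under all alternatives run. Max turned to -0.0106 (log2 fold change) with library size only. Gsk3b turned to -0.10 with library size only and -0.0779 with the abundance trend removed, and Mlxip, not past the test otherwise, turned to -0.35 with library size only; it was also below 0, without a call, at -0.15 with upper-quartile scaling and -0.11 with the abundance trend removed. Counts of calls that moved by over 1.5 times were these. With library size only, 3235 of all genes were higher, against 5510, and so were 9 MYC-activated genes, against 15, and 5 genes acting on Myc mRNA, against 11; lower were 3 MYC-repressed genes, against 1, 6 corepressor genes, against 1, and 2 MLX arm genes, against 0 with TMM in edgeR. With upper-quartile scaling, 3 MYC-repressed, 4 corepressor and 1 MLX arm genes were lower. With the abundance trend removed, 9 MYC-activated genes were higher, and 2 MYC-repressed and 5 corepressor genes lower. With a filter of at least 1 CPM in 3 libraries, 3 corepressor genes were lower, and Mycn and Mxd3 were not tested. These shifts in scaling move all genes: the median log2 fold change of all genes fell by 0.43 with library size only and by 0.24 with upper-quartile scaling; the cause of single calls was not tested. Summed MXD over Myc level without division by length was 3.70 in PP and 0.929 in PA/OA. With that division, leaving out single libraries, an alternative chosen after seeing the data, gave 1.61 to 1.64 in PP and 0.383 to 0.392 in PA/OA. Leaving out each library gave 5313 to 5485 genes higher and 6061 to 6452 lower, and 50 to 51 MYC-activated genes lower. With the replicate number as a block, 5427 genes were higher and 6088 lower. Deviations of libraries with the same number did not go together (correlations from -0.0234 to 0.00517). No pairing by number was thus seen, but 3 libraries per group cannot exclude one. Depth limits Mycn and Mxd3, with 38 counts or fewer in any library.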
